A study of Mus musculus with 28 samples.

Results

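The 39 Hox genes of the mouse were examined in the RNAseq counts of dissected first molar tooth germs. The members were all protein-coding genes named Hoxa, Hoxb, Hoxc, or Hoxd with a number, found by matching the Ensembl identifiers of the count table to the GENCODE annotation of GRCm38, and they were 39 of the 52636 genes in the table. The rule uses names and annotation and no measured value. All teeth came from C57BL/6JOlaHsd mice, and the design names them wild type. The main table holds 7 teeth labeled E13.5 from 7 embryos (E13 below), 7 teeth labeled E14.5 from 6 embryos (E14), and 7 teeth labeled E16.5 from 5 embryos (E16), each tooth sequenced as its own library. A second table of counts estimated with salmon adds 6 wild type lower first molars of E15 from 6 embryos, and it is the only source used here for that stage. The germs were not sorted, so each library mixes epithelium, mesenchyme, and whatever vessels, blood, and nerve were dissected with them.

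Hox genes encode homeodomain transcription factors and lie in 4 clusters, where the order of genes along the chromosome follows their order of use along the body axis. The neural crest cells that fill the first pharyngeal arch, and from which the jaw skeleton and the dental mesenchyme arise, are known for developing without Hox gene expression. Genes of the low-numbered paralogue groups act in the hindbrain and the arches behind the jaw, and genes of the high-numbered groups act in the trunk, tail, and limbs.

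Hoxd8 was the Hox gene with the most reads, its neighbor Hoxd9 had few, and Hoxd10, the next gene along the cluster, had none in any tooth. The sequence in front of each of the 3 genes is shown here because these adjacent genes cover the range of Hox counts in the teeth. The sequences are those of the RefSeq promoter table (GRCm38.p6), plus strand of chromosome 2, 5′ to 3′, up to the start of the gene, and capitals mark CpG dinucleotides. The Hoxd8 window is chr2:74704365-74704614, the Hoxd9 window, which stops at the start of the gene in GENCODE, is chr2:74697513-74697726, and the Hoxd10 window is chr2:74691641-74691890.
Hoxd8: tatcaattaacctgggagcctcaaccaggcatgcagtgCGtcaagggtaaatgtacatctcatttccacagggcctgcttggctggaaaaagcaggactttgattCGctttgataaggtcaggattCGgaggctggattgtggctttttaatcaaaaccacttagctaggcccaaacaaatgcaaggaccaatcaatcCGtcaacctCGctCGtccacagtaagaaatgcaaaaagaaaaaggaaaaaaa
Hoxd9: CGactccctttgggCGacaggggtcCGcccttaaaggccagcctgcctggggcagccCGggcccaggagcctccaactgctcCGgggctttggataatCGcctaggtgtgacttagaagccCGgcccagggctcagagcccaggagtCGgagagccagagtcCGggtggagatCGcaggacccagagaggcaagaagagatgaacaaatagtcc
Hoxd10: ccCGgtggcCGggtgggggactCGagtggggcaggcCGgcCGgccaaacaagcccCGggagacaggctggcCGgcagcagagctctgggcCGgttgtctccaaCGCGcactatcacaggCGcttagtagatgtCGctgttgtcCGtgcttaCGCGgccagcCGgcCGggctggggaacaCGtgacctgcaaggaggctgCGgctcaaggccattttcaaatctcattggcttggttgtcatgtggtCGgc
The Hoxd8 window held 6 CpG sites in 250 bases and 44.4% G and C. The Hoxd9 window held 10 CpG sites in 214 bases and 63.6% G and C, and the Hoxd10 window held 20 CpG sites in 250 bases and 65.6% G and C. The promoter windows of the RefSeq table run from 250 bases before to 50 bases after the start. Over all 32851 of them, the median was 7 CpG sites and 52.7% G and C. In the full windows, Hoxd8 held 6 CpG sites (46.7% G and C), Hoxd9 20 (68.3%), and Hoxd10 22 (62.7%). The table had 24 such windows for 22 of the 39 Hox genes, with a median of 57.7% G and C. They held between 4 (Hoxa9, Hoxd4, and 1 of the windows of Hoxd11) and 45 (Hoxa13) CpG sites. Any relation between CpG sites and reads was not tested. Both strands of these windows were searched for TGACAG, which Meis and Pknox proteins bind, for TGATNNAT, the form bound by Pbx with Hox proteins, and for TATAAA, and each motif was counted whether or not it overlapped another. TGACAG was found in 2 of the 24 Hox windows (8.33%, against 19.2% of all windows), TGATNNAT in 4 (16.7%, against 8.85%), and TATAAA in 4 (16.7%, against 13.6%). None of the 3 motifs occurred in the 3 sequences printed above. A match is a string of letters and not a measured binding site.

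Of the 39 Hox genes, 21 had at least 1 read in at least 1 of the 21 teeth and 18 had none. The 18 genes without a read were Hoxa3, Hoxa6, Hoxa10, Hoxa11, Hoxa13, Hoxb3, Hoxb5, Hoxb7, Hoxb13, Hoxc5, Hoxc6, Hoxc8, Hoxc9, Hoxc10, Hoxc11, Hoxd10, Hoxd11, and Hoxd12. Among the other 21857 protein-coding genes of the table, 84.5% had at least 1 read, against 53.8% of the Hox genes. With at least 10 reads summed over the 21 teeth, the shares were 77.6% of the other protein-coding genes and 20.5% (8) of the Hox genes. Only Hoxd8 had a read in every tooth, which 63.8% of the other protein-coding genes had. In total the 39 genes had 1035 of 496564010 counts, and Hoxd8 alone had 644 of the 1035 (62.2%). What the absence of reads for the 18 members can say is bound by the limits given below. Hoxd8 had reads in all 21 teeth, Hoxd4 in 17, and Hoxb2 in 13.

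The depth limits what a count of 0 can say. Libraries had between 17814073 and 27115729 counts. A count of 0 over the 7 teeth of a stage allows a level of up to 0.0193 counts per 1000000 counts (CPM) at E13 and 0.0176 CPM at E14 and at E16, and a count of 0 over all 21 teeth allows up to 0.00605 CPM. Each limit is the level of 3 reads over those teeth and covers counting error only. In bulk samples, fewer cells of a type and less RNA per cell cannot be told apart. Of the 18 genes without reads, 10 shared no exon base with another gene of the annotation and 8 did. Hoxb3, for example, shared 52.9% of its exon bases with the antisense gene Hoxb3os, and the strand and overlap settings of the counting are not given in the sources used here. A read in such a stretch may have been left uncounted.

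**Figure D1:**
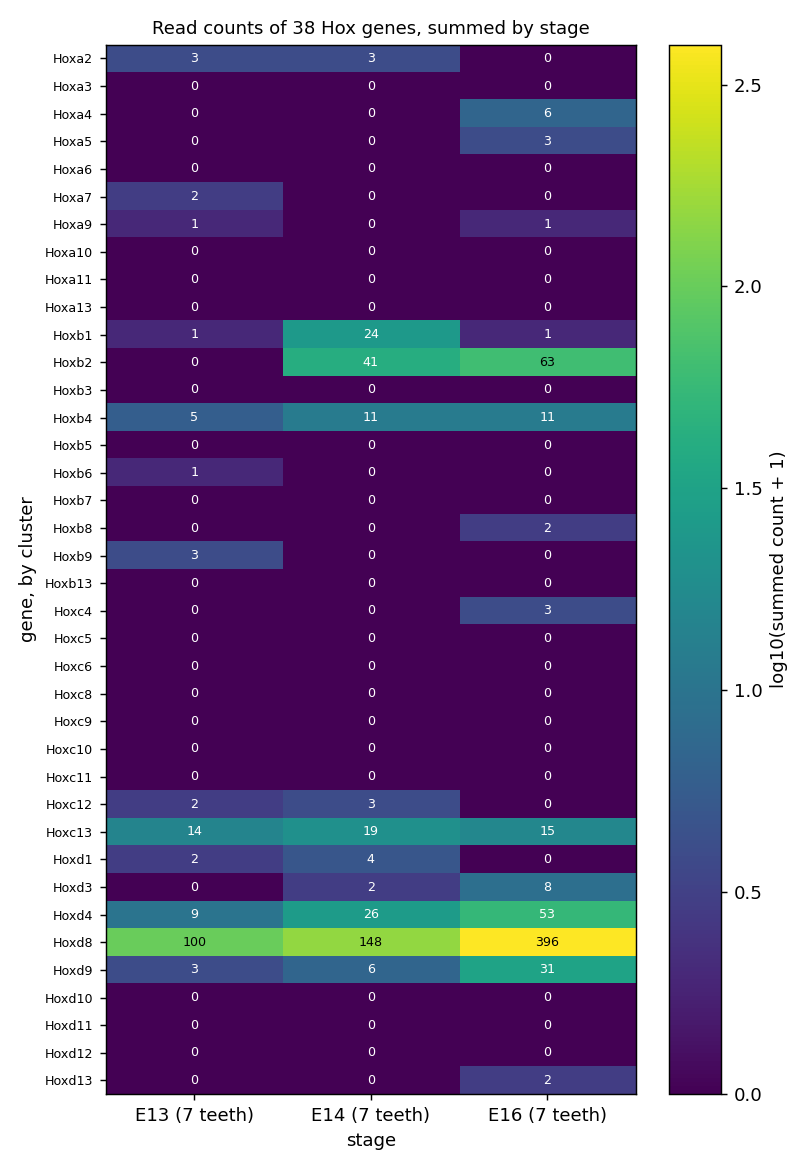
Summed read counts of 38 of the 39 Hox genes (rows, ordered by cluster, 1 member not drawn) at E13, E14, and E16 (columns, 7 teeth each), with the count written in each cell and color on a log10(count + 1) scale. Hoxd8 stands out at all 3 stages with 100, 148, and 396 reads, and the 18 genes without reads are dark throughout.

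The number of Hox genes with a read differed little between stages, and their summed reads differed more. At E13, 13 genes had a read, at E14 12, and at E16 14, and 6 genes had reads at all 3 stages (Hoxb1, Hoxb4, Hoxc13, Hoxd4, Hoxd8, and Hoxd9). A single tooth held reads of 3 to 7 Hox genes at E13, 3 to 10 at E14, and 5 to 9 at E16. The 39 genes together had 9 to 37 reads per tooth at E13 (median 19), 34 to 49 at E14 (median 43), and 39 to 110 at E16 (median 95). Without Hoxd8 these ranges were 3 to 9, 5 to 34, and 12 to 46 reads. Every E16 tooth had more reads of the remaining 38 genes than any E13 tooth, and the E14 teeth overlapped both.

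The Hoxd cluster on chromosome 2 held 790 of the 1035 reads (76.3%), and 146 without Hoxd8. The Hoxb cluster on chromosome 11 held 163 reads (15.7%), the Hoxc cluster on chromosome 15 held 56 (5.41%), and the Hoxa cluster on chromosome 6 held 26 (2.51%). Genes with reads were found in every cluster, 6 of 11 in Hoxa, 6 of 10 in Hoxb, 3 of 9 in Hoxc, and 6 of 9 in Hoxd. By paralogue group, 6 of the 8 genes of groups 1 to 3 had reads, against 9 of 15 in groups 4 to 8 and 6 of 16 in groups 9 to 13. These groups had 159, 776, and 100 reads, and groups 4 to 8 had 132 without Hoxd8.

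Hoxd8 (chr2:74704615-74707933, plus strand), a gene of the central part of the cluster that is known for expression in the trunk, was higher at E16 than at E13 and E14. It shares no exon base with another annotated gene. At E13 it had 5 to 34 reads per tooth (median 12), or 0.668 ± 0.547 CPM (mean and SD, n = 7). At E14 it had 11 to 37 reads (median 16), or 0.880 ± 0.416 CPM (n = 7), and at E16 27 to 73 reads (median 60), or 2.29 ± 0.492 CPM (n = 7). Of the 7 E16 teeth, 6 lay above all earlier teeth, and the ranges met because of 1 E16 tooth at 1.27 CPM, 1 E13 tooth at 1.81 CPM, and 1 E14 tooth at 1.63 CPM.

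In edgeR's quasi-likelihood fit, a model of all genes that passed the filter on low counts, Hoxd8 was the only Hox gene among the 19101 genes tested. Its log2 fold change from E14 to E16 was 1.38 (SE 0.36, Benjamini-Hochberg adjusted p = 0.00546), and from E13 to E16 it was 1.79 (SE 0.38, adjusted p = 0.000426). From E13 to E14 the log2 fold change was 0.41 (SE 0.38, adjusted p = 0.495), within the spread between teeth. Thus 0 of 1 tested Hox genes were called between E13 and E14, where 19.7% of all tested genes were called, and 1 of 1 in the other comparisons, where 28.1% (E16 against E14) and 41.3% (E16 against E13) were called. With an unadjusted p below 0.05 the count between E13 and E14 was also 0, and so it was with DESeq2. Without the highest E13 tooth (embryo 10 left), the log2 fold change from E13 to E14 was 0.86 (adjusted p = 0.0882 by edgeR). In that fit Hoxd8 had an unadjusted p below 0.05 and was still not called. The 3 comparisons share samples, since each stage serves in a pair of them. The p-values set the difference between stages against the spread between teeth. Each tooth was taken as a unit, though some teeth came from the same embryo. With the teeth of an embryo summed, the change from E14 to E16 was 1.36 (adjusted p = 0.0219 by edgeR).

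The left tooth of embryo 3 was the lowest E16 tooth for Hoxd8. This library had the lowest depth of all 21 (17814073 counts) and the lowest mean correlation with the other teeth of its stage (0.948, against 0.969 or more for every other library). It also had the lowest summed level at E16 of the endothelial markers (159 CPM, against a stage maximum of 450 CPM), macrophage markers (51.2 CPM), neuron markers (10.5 CPM), cartilage markers (34.6 CPM), osteoblast markers (474 CPM), dental mesenchyme markers (478 CPM), and dental epithelium markers (1310 CPM), and of the Polycomb, Trithorax, and jaw patterning lists described below (935, 1553, and 1622 CPM). Not every list was low in this tooth. Red blood cell markers (55.1 CPM) and Schwann cell markers (12.6 CPM) were at their E16 median. Skeletal muscle markers (8.58 CPM) and the TALE genes described below (719 CPM, median 704 CPM) were above theirs. The protein-coding genes nearest to the clusters were at 1012 CPM, against a stage maximum of 1021 CPM. Without this tooth, the log2 fold change of Hoxd8 was 1.5 from E14 to E16 (adjusted p = 0.00213 by edgeR) and 1.91 from E13 to E16 (adjusted p = 0.000157).

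Marker genes of other cell types moved between the stages as well. All 5 dental epithelium markers rose from E13 to E16, and their summed level was 505 to 771 CPM at E13, 879 to 1159 CPM at E14, and 1310 to 2317 CPM at E16. Of the 5 dental mesenchyme markers 3 fell, from 1337 to 1704 CPM in sum at E13 to 478 to 1073 CPM at E16, with 1286 to 1459 CPM at E14. Both sets had reads in every tooth, as the label of a tooth germ requires. Macrophage markers rose in 6 of 6 genes (25.3 to 48.8, 47.5 to 62.8, and 51.2 to 97.9 CPM), and endothelial markers in 2 of 6 (230 to 305, 300 to 383, and 159 to 450 CPM). Neuron markers summed to 8.85 to 12.5, 13.1 to 21.5, and 10.5 to 24.7 CPM, with 2 of 3 tested genes up and 1 down. Schwann cell markers were at 13.9 to 24.4, 9.68 to 13.7, and 8.20 to 14.7 CPM, with 3 of 5 genes down. Red blood cell markers summed to 243 to 453, 119 to 187, and 43.0 to 119 CPM, and 2 of 8 were up and 2 down. Skeletal muscle markers fell in 5 of 6 genes (5.95 to 273, 9.04 to 22.8, and 2.81 to 42.1 CPM). Cartilage markers had 2 of 4 tested genes up and 2 down (196 to 237, 99.9 to 195, and 34.6 to 204 CPM), and osteoblast markers 2 of 4 up (365 to 705, 396 to 1149, and 474 to 739 CPM). These counts of genes up or down are for E16 against E13, where 41.3% of all tested genes were called. The part of these cell types in the Hox counts was not tested.

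The salmon table extended the Hoxd8 series to E15. It lists 14185 genes and only 2 Hox genes, Hoxb2 and Hoxd8. In the 14 teeth that both tables share, Hoxb2 had the same count in every tooth, and Hoxd8 differed by at most 4 reads. Hoxd8 had 13 to 118 estimated counts per E15 tooth (median 41.5), or 2.64 ± 1.86 CPM (SD, n = 6), against 0.759 ± 0.648 CPM at E13 and 2.67 ± 0.525 CPM at E16 (n = 7 each) in the same table. The E15 teeth spread widely, from 0.615 CPM in the right tooth of embryo 6 to 5.96 CPM in the left tooth of embryo 5, and they overlapped both other stages. The log2 fold change from E13 to E15 was 1.81 (SE 0.46, adjusted p = 0.00455 by edgeR), in a comparison that called 26.8% of 13447 tested genes. From E15 to E16 it was 0.02 (SE 0.43, adjusted p = 0.992), where 6.33% of genes were called. The count of Hox genes called there was 0 of 1 tested, also at an unadjusted p below 0.05. The E15 germs were stored and processed under a protocol of their own, and the stage cannot be told apart from it.

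**Figure D2:**
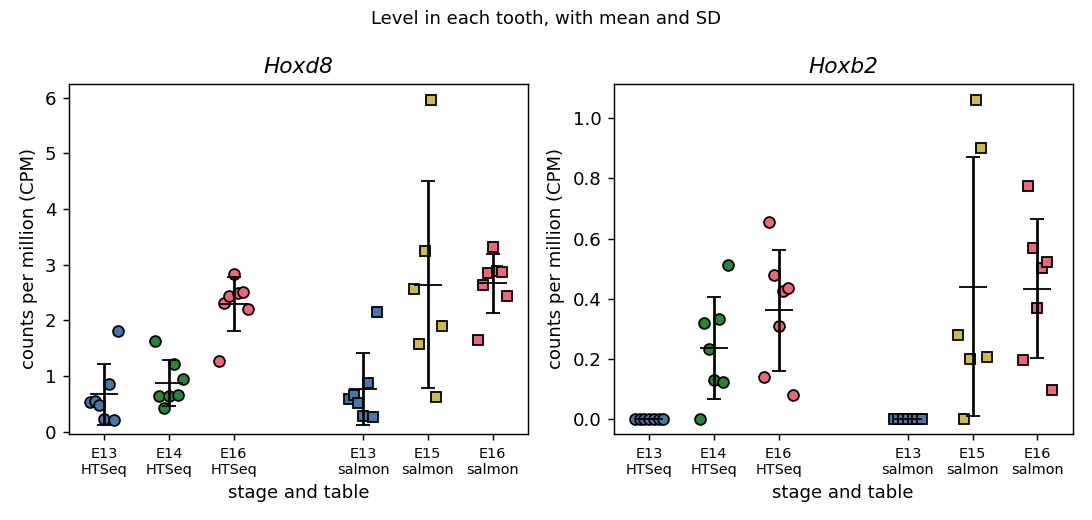
Level of Hoxd8 (left) and Hoxb2 (right) in CPM in each tooth, by stage, in the HTSeq table (circles) and the salmon table (squares), with the mean (short bar) and SD (error bar) of 7 teeth, or 6 at E15. Hoxd8 averaged 0.668, 0.880, and 2.29 CPM at E13, E14, and E16, and Hoxb2 was at 0 in all E13 teeth.

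Hoxb2 (chr11:96350525-96354012), which patterns the hindbrain and the second arch, had the next most reads. It had 0 reads in all 7 E13 teeth, 0 to 13 at E14 (median 6, reads in 6 of 7 teeth), and 2 to 17 at E16 (median 8, reads in 7 of 7). In CPM this was 0.236 ± 0.169 at E14 and 0.361 ± 0.200 at E16 (SD, n = 7 each). The E13 and E16 teeth did not overlap, and 1 E14 tooth, the right tooth of embryo 1, was at 0 like those of E13. The observed rate of Hoxb2 was 12.5-fold the limit of 3 reads over the E13 teeth at E14 and 19.1-fold at E16. These values leave out the counting error of the E14 and E16 reads, so they are not lower bounds of the ratio. From E14 to E16 the ratio of the summed reads was 1.53 (95% interval 1.02 to 2.33 from counting error alone). In the salmon table Hoxb2 had 0 to 21 counts per E15 tooth, with reads in 5 of 6 teeth.

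The low Hox genes did not pass the filter, and a second edgeR fit took all 36413 genes with any count, 21 of them Hox genes. From E13 to E14, 2 of the 21 were called, Hoxb1 and Hoxb2, both higher at E14, where 9.35% of all genes in that fit were called. From E14 to E16, 2 of 21 were called, Hoxd8 higher and Hoxb1 lower at E16, where 14% were called. From E13 to E16, 5 of 21 were called, Hoxd8, Hoxb2, Hoxd9, Hoxd4, and Hoxd3, all higher at E16, where 21.8% were called. The share of members called was near that of all genes in each comparison. The adjusted p-values of Hoxb2 in this edgeR fit were 0.000676 (E14 against E13), 0.580 (E16 against E14), and 5.23e-05 (E16 against E13). They were between 1.56e-05 and 0.00182 for the comparisons with E13 when any single tooth was left out. An exact permutation test of Hoxb2 CPM over the teeth (two-sided, not adjusted) gave p = 0.00466 for E14 against E13, 0.227 for E16 against E14, and 0.000583 for E16 against E13, which is the smallest p that 3432 splits of 7 and 7 teeth can give. The exact test was run on the 9 Hox genes with the most reads in 3 comparisons each, 27 tests in all. It takes each tooth as a unit, though some teeth of E14 and of E16 came from the same embryo. With the teeth of an embryo summed, only Hoxd8 passed the filter, so the low Hox genes were not tested that way.

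Hoxb2 shares 27.3% of its exon bases with Hoxb3os on the opposite strand. Hoxb3os had 7 reads over the E13 teeth, 22 at E14, and 31 at E16. Without strand, reads from a gene and its antisense partner cannot be told apart.

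Hoxd4 and Hoxd3 lie toward the 3′ end of their cluster and act in the hindbrain and neck. Hoxd4 (chr2:74711929-74729160) had 0 to 3 reads per tooth at E13 (median 1), 0 to 18 at E14 (median 1), and 4 to 14 at E16 (median 7). All E16 teeth lay above all E13 teeth, and the right tooth of embryo 3 held 18 of the 26 reads at E14. The ratio of summed reads was 5.35 from E13 to E16 (95% counting interval 2.62 to 12.3), with an adjusted p of 0.0431 in the edgeR fit of all counted genes and p = 0.000583 in the exact permutation test. The edgeR call was lost without any of 5 E13 teeth (all but those of embryos 2 and 3; adjusted p between 0.0673 and 0.0824) and without the E16 teeth of embryo 6 left (0.0546), embryo 7 right (0.0735), embryo 8 right (0.0587), or embryo 8 left (0.0861). Hoxd3 had no reads at E13, 2 at E14, and 8 at E16 in 3 of 7 teeth. It was at 2.42-fold the E13 limit at E16, a value that leaves out the counting error of the 8 reads. Its adjusted p was 0.0400 for E16 against E13 by edgeR and 0.192 unadjusted in the exact permutation test, and the edgeR call was lost without any 1 of the 7 E13 teeth (0.0588 to 0.0613) and without the E16 teeth of embryo 3 left (0.0612) or embryo 7 right (0.0996). Hoxd3 and Hoxd4 share 62.8% and 52.3% of their exon bases with other annotated genes, each other among them, so the split of reads between them is uncertain.

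Hoxd9 (chr2:74697727-74700208), of a group active in the trunk and limbs, had 0 or 1 read per tooth at E13, 0 to 5 at E14, and 1 to 16 at E16 (medians 0, 0, and 1). The left tooth of embryo 5 held 16 of the 31 reads at E16. All 7 E16 teeth had a read, against 3 E13 and 2 E14 teeth, and 4 of them had a single read like the E13 teeth. The ratio from E13 to E16, 31 reads against 3, was 9.39 (95% counting interval 2.93 to 48.0), with an adjusted p of 0.0476 by edgeR and p = 0.0117 in the exact permutation test (unadjusted). The edgeR call was lost without 10 of the 21 teeth, which were the E13 teeth of embryos 1, 2, 3, 5, 7, and 9 (0.0534 to 0.0863), the E14 tooth of embryo 3 (0.0506), and the E16 teeth of embryo 5 left (0.192), embryo 6 right (0.0729), and embryo 8 right (0.0693).

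Hoxb1 (chr11:96365752-96368256), a gene of the hindbrain that specifies the facial nerve segment, was the only called Hox gene with its highest level at E14. It had 1 read at E13 (in 1 tooth), 24 at E14 (in 5 of 7 teeth, 0 to 9 per tooth, median 2), and 1 at E16 (in 1 tooth). The E14 reads lay in the right teeth of embryos 2, 3, 5, and 6 and in the left tooth of embryo 6, and 2 teeth of E14 were at 0. The ratio of summed reads was 21.9 from E13 to E14 (95% counting interval 3.57 to 901) and 0.0415 from E14 to E16 (0.00101 to 0.254). By edgeR the adjusted p was 0.0322 for E14 against E13 and 0.0180 for E16 against E14, and the exact permutation test gave 0.0373 and 0.0210 (unadjusted). The exact p-values are among the 27 run, and 24 of the 26 reads that placed Hoxb1 among the genes tested were at E14. They come from the same reads and are not separate support for the edgeR calls. The call for E14 against E13 was lost without 9 teeth, which were all E13 teeth but that of embryo 9 (0.0573 to 0.0636) and the right E14 teeth of embryo 3 (0.0782), embryo 5 (0.0565), and embryo 6 (0.0585). The call for E16 against E14 was kept without any 1 of the 21 teeth, with adjusted p up to 0.0459. Hoxb1 shares no exon base with another annotated gene, and its RefSeq promoter window held 1 TGATNNAT.

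Hoxc13 and Hoxb4 had reads without a call in any of the 3 comparisons. Hoxc13, known for its role in hair and nail, had 14, 19, and 15 reads over the teeth of E13, E14, and E16, in 4, 3, and 5 of 7 teeth, and its ratio from E13 to E16 was 0.973 (95% counting interval 0.438 to 2.18). Hoxb4, of the hindbrain and neck, had 5, 11, and 11 reads, all 5 at E13 in the right tooth of embryo 1, and its ratio from E13 to E16 was 2.0 (0.640 to 7.34). The adjusted p-values by edgeR for E16 against E13 were 0.605 for Hoxb4 and 1.00 for Hoxc13.

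**Figure D3:**
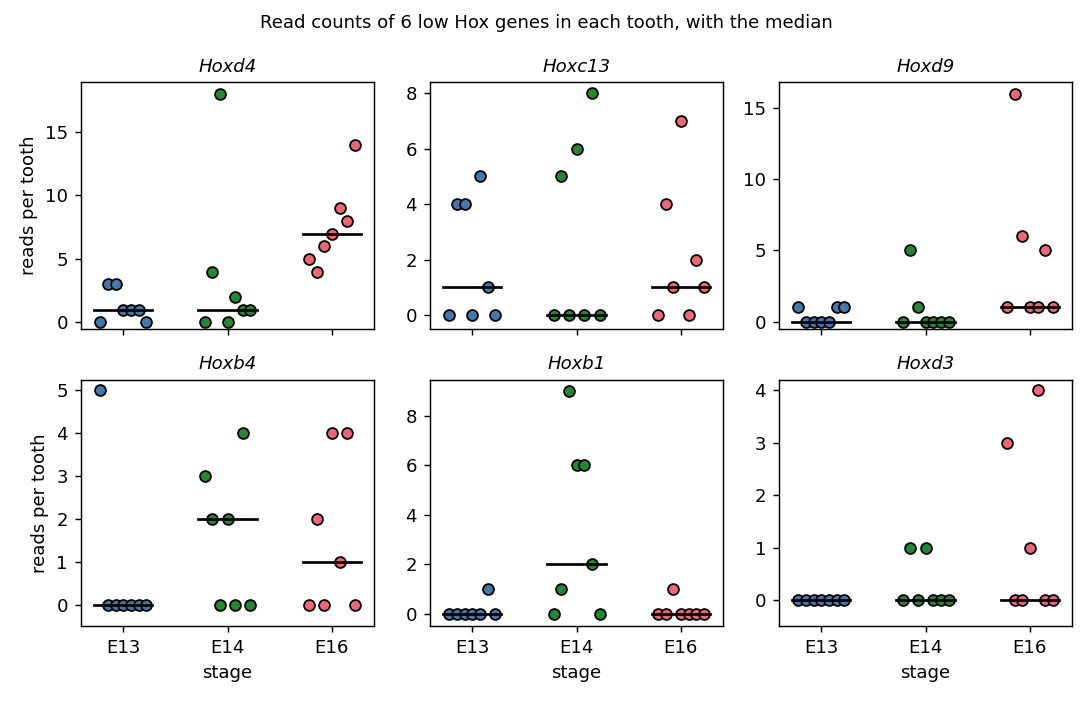
Reads per tooth of 6 low Hox genes at E13, E14, and E16 (points, 7 teeth per stage), with the median of each stage as a line. Hoxd4 is the gene of these whose E16 teeth (4 to 14 reads) all lie above the E13 teeth (0 to 3 reads), Hoxb1 reads lie mostly at E14, and 1 tooth holds 16 of the 31 Hoxd9 reads at E16.

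The remaining 12 genes with reads had 1 to 6 reads each, 41 in all. Of them, 7 had reads in 1 tooth only, 4 in 2 teeth, and Hoxa2, which keeps the second arch from taking a jaw identity, in 3 teeth. Hoxa2 had 3 reads at E13 and 3 at E14, and Hoxd1 had 2 reads at E13 and 4 at E14, each with none at E16. Hoxa4 had 6 reads and Hoxa5 had 3, all in the left tooth of embryo 6 at E16. Hoxa7, Hoxb6, and Hoxb9 had reads at E13 only (2, 1, and 3), and Hoxb8, Hoxc4, and Hoxd13 at E16 only (2, 3, and 2). Hoxc12 had 2 reads at E13 and 3 at E14, and Hoxa9 had 1 at E13 and 1 at E16. None of these 12 totals exceeds 6 reads over 21 teeth.

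The other genes inside the 4 clusters gave few reads as well. The annotation places 46 further genes between the first and the last Hox gene of each cluster, and 36 of them had no read. These included Hotair, a noncoding RNA of the Hoxc cluster, and all 7 miRNA genes, among them Mir10a, Mir10b, and Mir196b. The paper describes no preparation for small RNA, so counts of 0 at miRNA genes do not measure mature miRNAs. Mir196b also shares 85 exon bases with Hoxa9, where reads may have been left uncounted. Hoxd3os1 had 38 reads in 13 teeth, Gm28230 20 in 8 teeth, and Hotairm1, a noncoding RNA of the Hoxa cluster, 10 in 4 teeth. Gm11539, a processed pseudogene of the Hoxb cluster, had 33 to 232 reads in every tooth, and reads of such a copy can belong to its parent gene.

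Of the 16 protein-coding genes nearest to the clusters, 4 per cluster, 11 passed the filter and had reads in every tooth. Hnrnpa3, beyond Mtx2 at the Hoxd cluster, was at 343 ± 39.4 CPM at E13 and Cbx5 at the Hoxc cluster at 657 ± 27.4 CPM (SD, n = 7). Lnpk and Mtx2, at either side of the Hoxd cluster, were at 67.0 ± 7.38 and 40.8 ± 3.66 CPM at E13. From E13 to E16, 3 of the 11 rose and 3 fell, where 41.3% of all tested genes were called. Evx2, the homeobox gene next to Hoxd13, had no read, and Evx1, next to Hoxa13, had 10 reads in 1 E13 tooth.

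The TALE homeodomain factors of the Pbx, Meis, and Pknox families bind DNA together with Hox proteins, and the RNA of all 9 had reads in every tooth. Per kilobase of exon, Hoxd8 had a mean level of 0.243 CPM per kb at E13, 0.321 at E14, and 0.836 at E16. It was higher than 38.2% of the 21896 protein-coding genes at E13 and 43.5% at E16. Pbx4, a partner of Hox proteins, had 1.02 CPM per kb at E13 and 1.01 at E16, and Pknox2 had 2.12 and 0.854, the latter close to Hoxd8 at E16. From E13 to E16, 2 of the 9 TALE genes rose, 5 fell, and 2 were not called, with a median log2 fold change of -0.26, beside -0.01 over all 19101 genes tested. Pknox2 had the largest called change (log2 fold change -1.31, SE 0.17), and Meis3 (0.53, SE 0.14) and Meis1 (0.32, SE 0.11) were the genes that rose. Between E13 and E14, 0 rose and 4 fell, and between E14 and E16, 1 rose and 5 fell. Of all genes tested, 19.7% were called between E13 and E14, 28.1% between E14 and E16, and 41.3% between E13 and E16.

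Relatives of the Hox genes outside the clusters also had few reads. Of 8 ParaHox, Cdx, and Evx genes, which pattern the gut, the tail, and the nervous system, none passed the filter, and Cdx2, Cdx4, Gsx2, Pdx1, and Evx2 had no read. Cdx1 had the most, 41 reads in 11 teeth.

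The regulators of Hox chromatin were all present. Polycomb proteins keep Hox genes silent outside their domains, and Trithorax proteins and the demethylases Kdm6a and Kdm6b act in the opposite direction. All 15 Polycomb genes and all 7 genes of the second list had reads in every tooth. From E13 to E16, 4 of the 15 Polycomb genes rose, 5 fell, and 6 were not called (median log2 fold change -0.09). Cbx7 had the largest called change (log2 fold change 1.07, SE 0.14), from 5.23 ± 0.925 CPM at E13 to 11.0 ± 1.70 CPM at E16. Ezh2, a methyltransferase, was at 169 ± 4.25 and 136 ± 5.41 CPM (log2 fold change -0.31, SE 0.05). Ezh1, of the same list, went the other way, from 39.7 ± 3.92 to 50.9 ± 4.23 CPM (0.36, SE 0.07). Of the 7 others, 0 rose, and 1 fell, Wdr5 (-0.37, SE 0.09). Over all tested genes, 41.3% were called in this comparison. Kmt2d had the highest level of this list, 819 ± 46.0 CPM at E13.

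Of a list of 20 homeobox genes and related factors that pattern the Hox-free jaw and its teeth, 19 passed the filter, and Hand1 was without reads. Hand2, a bHLH factor like Hand1, had 534 reads in 14 teeth, fewer than Hoxd8. Prrx1, a gene of the jaw mesenchyme, was the highest at 1431 ± 109 CPM at E13 (129 CPM per kb). From E13 to E16, 6 of the 19 rose, 9 fell, and 4 were not called, where 41.3% of all tested genes were called. Dlx4 had the largest called change (log2 fold change 4.73, SE 0.23, from 0.771 ± 0.202 to 20.5 ± 6.22 CPM), and Msx1, a factor of the dental mesenchyme, fell (-1.32, SE 0.15). These lists are described by their counts only, and no comparison between lists was tested.

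**Figure D4:**
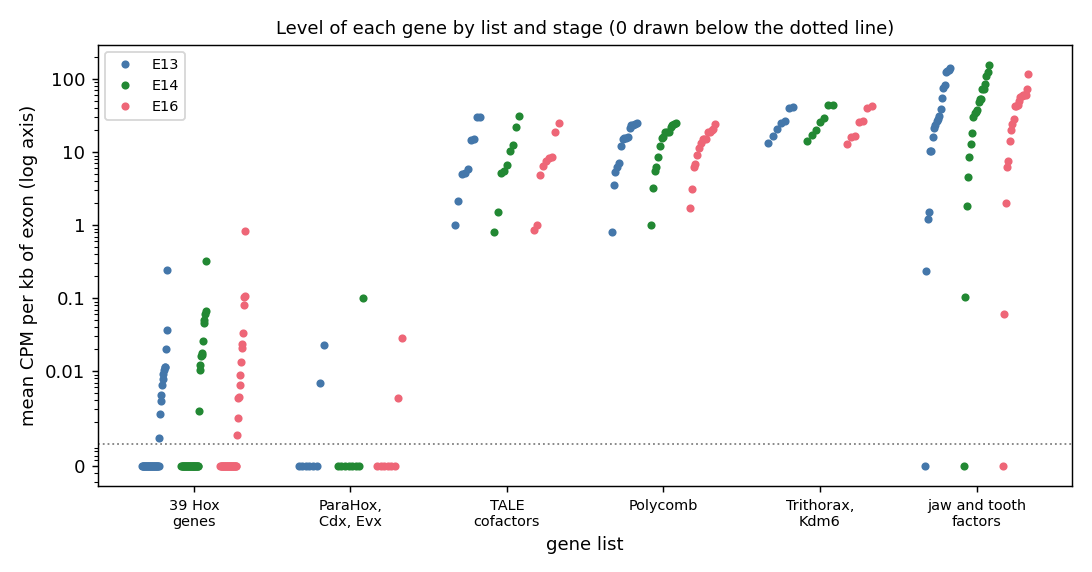
Mean level of each gene in CPM per kb of exon (log axis, with 0 drawn below the dotted line) at E13, E14, and E16, for the 39 Hox genes and 5 other lists. Hox genes lie below 1 CPM per kb at every stage, with Hoxd8 at E16 highest at 0.836, and most other regulators lie between 1 and 100.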

How the data were processed

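RNAseq libraries of individual first molars were grouped by the embryonic day, embryo, and side given in the labels. Per the paper's methods and the labels, the authors removed poor reads (FastQC, AfterQC, Trimmomatic), mapped the rest to GRCm38 with STAR, and counted reads per gene by HTSeq. The deposited counts are whole numbers without normalization. The second deposited table holds estimated counts that the authors made with salmon, in whole numbers. Its index and its choice of genes are not given in the sources used here. Of 7 E15 samples, 6 have a column, and the last was not analysed here.

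Symbols, coordinates, and exon lengths were taken from GENCODE M21 (GRCm38), another release than that of the authors, and 147 of 52636 identifiers had no match. CPM used TMM-scaled library sizes. Counts were tested with edgeR 4.0.16 in R 4.3.3 (quasi-likelihood, TMM, filterByExpr, stages as groups, all 21 libraries in 1 fit, or 20 for the salmon table), with Benjamini-Hochberg adjusted p below 0.05 over all genes. The SE was the log2 fold change over the square root of F. The script was tested on simulated data. Alternatives were DESeq2 1.42.0, its size factors, other filters, side, embryo number, summed teeth, and each tooth left out. Exact permutation tests and interval estimates for counts (Clopper-Pearson) used scipy 1.17.1. No 2 libraries of a stage agreed within sampling noise (lowest chi-square per degree of freedom 7.21). Genes named are the 9 Hox genes with the most reads (a tie for place 10 was left out) and, in each other list, the highest gene, the largest called change, and some added as examples after their values were seen. Some genes are counted in their lists but not reported here by name. The members and lists were chosen with earlier results of these data known.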

Additional observations from a re-analysis of the deposited data

Results flagged for a closer look

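Sets of Hox values were the 9 Hox genes with the most reads and the summed Hox level in CPM at each stage, and the 2 genes of the salmon table at E15. In the 28 sets that held any read, 8 had 1 tooth farther from the others than Dixon's 95% critical value allows, where chance flags about 1 in 20 sets of continuous values. That rate does not apply to sets that are mostly 0, so the number of such sets is given without a comparison. For Hoxd8 these were the left tooth of embryo 10 at E13 (1.81 CPM, next tooth 0.86 CPM) and, at E16, that of embryo 3 on the left (1.27 CPM, next tooth 2.21 CPM). Hoxd4 was at 0.704 CPM in the right tooth of embryo 3 at E14 (next tooth 0.161 CPM). Hoxd9 was at 0.201 CPM in the right tooth of embryo 2 at E14 and at 0.616 CPM in the left tooth of embryo 5 at E16. The remaining 3 were genes with reads in 1 tooth of the stage only, where any read is set apart by construction: Hoxb4 at E13 (right tooth of embryo 1, 0.204 CPM), Hoxb1 at E13 (right tooth of embryo 9, 0.0425 CPM), and Hoxb1 at E16 (right tooth of embryo 6, 0.0369 CPM).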

How the results depend on the processing

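The log2 fold change of Hoxd8 kept its direction and its side of the threshold in all 28 alternatives, with values of 1.28 to 1.61 for E16 against E14, 1.65 to 2.26 for E16 against E13, and 0.19 to 0.86 for E14 against E13. In the salmon table it was 1.39 to 2.31 for E15 against E13 over 22 alternatives, past the threshold in each. For E16 against E15 it ranged from -0.19 to 0.43 when each tooth was left out and was below 0 in 7 of these, without a call. With all genes with any count, the number of Hox genes called was 2 in place of 0 for E14 against E13, 2 in place of 1 for E16 against E14, and 5 in place of 1 for E16 against E13, because more Hox genes were tested. For E15 against E13 it was 2 of 2 tested in place of 1 of 1. The share of all genes called in that salmon fit is not given here, so this count has no comparison. With each tooth left out, the count for E15 against E13 was 1 to 2, since Hoxb2 then passed the filter in some fits. Of the 21 Hox genes with any count, 8 had at least 10 reads in all and 7 had reads in at least 7 teeth. Teeth of different stages come from different embryos, so a shared embryo number does not pair them. The correlation of same-numbered teeth of different stages was -0.09 to 0.199 over 15 pairs, above 0.1 in 3, without differently numbered pairs as a reference. The fit with embryo number as a replicate block gave 1.43 for Hoxd8, E16 against E14, with the same Hox calls. The leave-out fits of the low genes and the exact tests were added after the data were seen. Depth limits any statement on genes with under 3 reads in a stage.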
